A study of Mus with 35 samples.

Results

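The comparison described here asked what an antisense oligonucleotide (ASO) against Hnrnph2 did to the brain transcriptome of mice that carry the P209L substitution in Hnrnph2, measured at 8 weeks of age. The 6 libraries were chosen by their titles, 3 labelled P209L with Hnrnph2 ASO and 3 labelled P209L with control ASO, out of 35 libraries in 12 groups. All P209L mice were hemizygous males on C57BL/6J, and both groups had received a single 30 µg dose of their ASO into the brain ventricles between postnatal days 2 and 4. No uninjected mice enter the comparison. Libraries of male WT mice of the same strain and age, 3 with Hnrnph2 ASO and 3 with control ASO, share the cohort and were used to place the P209L values. A P209L cohort measured at 3 weeks of age was also used. Its 11 libraries came from P209L and WT mice with either ASO, at the same dose and days of injection. Fits of all 35 libraries also held a 3-week cohort of R206W and WT mice with either ASO. The labels name no Cre line or tissue-specific promoter. They do not state outright that each library is a separate animal, so p-values measure the spread between libraries. Libraries were made from total RNA with a stranded kit, and the deposited values are TPM, a transcript abundance corrected for gene length and scaled to the same total in every library. Of 55573 rows in the table, 16543 had a mean TPM of at least 1 over the 6 libraries and were tested.

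The product of the X-linked gene Hnrnph2 belongs to the hnRNP H/F family of RNA-binding proteins, which binds G-rich tracts in nascent transcripts and takes part in splicing and polyadenylation. Hnrnph1 is its close autosomal paralog. In humans, missense changes in HNRNPH2, many of them in or next to the nuclear localisation signal that transportin recognises, cause a neurodevelopmental disorder, and P209L is the mouse form of one of these changes. A male has a single X chromosome, so every Hnrnph2 transcript in a P209L male carries the change, and an ASO against the transcript lowers the mutant product.

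The labels disagree on the tissue, naming whole brain in 1 place and dissection of the cortex in another. Across the 12 libraries of the 8-week cohort, Pcp2, a Purkinje cell gene of the cerebellum, ranged between 165.07 and 319.48 TPM, and the cerebellar granule cell gene Gabra6 between 32.39 and 84.42 TPM. Ttr, which the choroid plexus expresses, ranged between 728.3 and 1187.46 TPM. Markers of cerebellum and choroid plexus were thus detected in every library. In each of the 12 libraries, 16277 to 16553 genes reached 1 TPM, the 50 most abundant genes took 28.5% to 33.8% of all TPM, and mitochondrially encoded transcripts 13.5% to 15.4%. The mitochondrial share separated the compared groups, at 14.2%, 13.8% and 13.5% in P209L mice with Hnrnph2 ASO, against 14.9%, 14.9% and 14.7% with control ASO. With TPM rescaled without these transcripts all 16 genes called below kept their call. Summed cerebellar marker TPM was lowest in replicate 2 of P209L with Hnrnph2 ASO, at 2264, against 2687 to 2954 in the other 11 libraries. TPM gives no read depth, so no counting interval was computed.

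Hnrnph2 (mm10, X:134601179-134607060) was strongly depleted. It stood at 11.63, 6.95 and 7.14 TPM in P209L mice with Hnrnph2 ASO, against 94.88, 104.2 and 97.66 TPM with control ASO. The groups did not overlap, and the mean of 8.57 ± 2.65 TPM against 98.9 ± 4.79 TPM (SD, n = 3 each) is a fall of 91.3%. On the log2(TPM + 1) scale the change was -3.42 (SE 0.21, limma adjusted p = 7.54e-05). An exact two-sided permutation test gave p = 0.1, the smallest value that 3 against 3 allows. WT mice had 18.51, 20.57 and 11.96 TPM with Hnrnph2 ASO, against 109.42, 88.2 and 116.61 TPM with control ASO, a fall of 83.8%. All 3 P209L libraries with Hnrnph2 ASO lay below all 3 WT ones, but the difference between the genotypes in the ASO effect, -0.84 on the log2 scale, did not pass (limma adjusted p = 0.933).

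Hnrnph1 (11:50375257-50386528) stood at 426.28, 423.88 and 403.42 TPM in P209L mice with Hnrnph2 ASO, against 361.15, 336.72 and 318.07 TPM with control ASO. The groups did not overlap, with a log2 change of 0.30 (SE 0.067), an exact permutation p of 0.1, and a limma adjusted p of 0.199 over all genes, so it did not pass. WT mice had 420.63, 428.66 and 385.18 TPM with Hnrnph2 ASO, against 332.63, 328.39 and 298.75 TPM with control ASO. Hnrnph1 was thus higher with the Hnrnph2 ASO in both genotypes without passing in either, and it passed in P209L when all 35 libraries shared 1 fit. Hnrnph1 and Hnrnph2 are close in sequence, and how the authors divided reads that match both is not given in the sources used here. Of the other family members, the log2 change was 0.10 for Hnrnph3 (exact permutation p = 0.5), -0.04 for Hnrnpf (exact permutation p = 0.8) and 0.06 for the more distant Grsf1 (exact permutation p = 0.7). None of the 6 nearest tested RefSeq neighbours of Hnrnph2 passed. The nearest, Gla, the lysosomal alpha-galactosidase whose annotation ends 173 bases away, had 7.11, 6.47 and 7.93 TPM with Hnrnph2 ASO, against 5.37, 5.95 and 5.64 TPM with control ASO, a log2 change of 0.29 (limma adjusted p = 0.383).

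**Figure D1:**
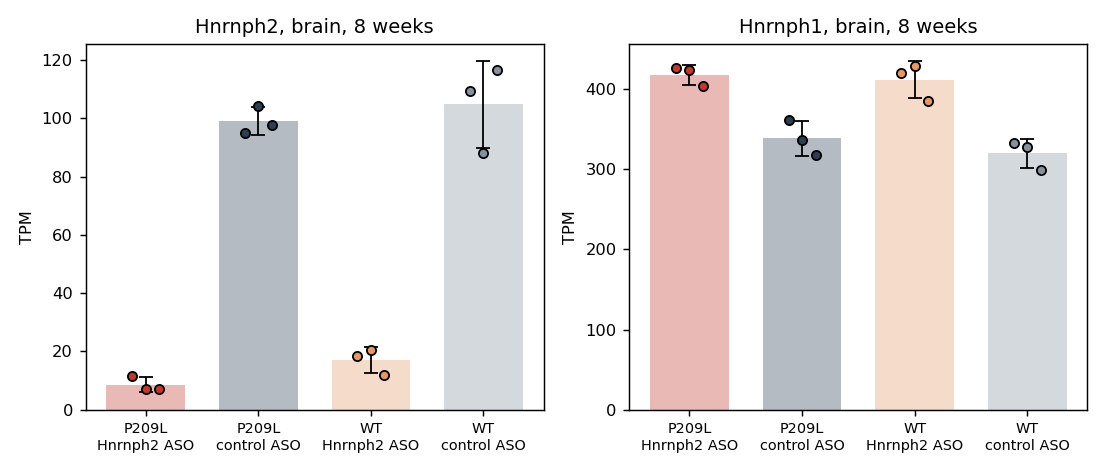
TPM of Hnrnph2 (left) and Hnrnph1 (right) in each library at 8 weeks, by genotype and ASO. Points are libraries, bars the group mean and error bars the SD (n = 3); Hnrnph2 averaged 8.57 TPM in P209L mice with Hnrnph2 ASO and 98.9 TPM with control ASO, while the Hnrnph1 values of both ASO-treated groups lay above those of their controls.

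Beyond the target, few genes passed. Called at a limma adjusted p under 0.05 over all 16543 genes, 13 genes were lower with the Hnrnph2 ASO in P209L mice (0.0786% of those tested). Another 3 were higher (0.0181%), 16 in all (0.0967%). These counts include Hnrnph2, and without it 12 lower genes and 15 in all remain. At an unadjusted p under 0.05 there were 668 higher (4.04%) and 382 lower (2.31%), and the median log2 change over all genes was 0.00327. Of the tested genes, 190 reached a mean of 1 TPM in the Hnrnph2 ASO group only, 161 in the control ASO group only and 16192 in both. Among the 190 is 5430431A17Rik, 1 of the 3 higher genes. At the edge of the filter, Rhbdf2 had a mean of 1 TPM and was tested, while Lmx1b, at 0.9983 TPM, was not. Leaving out single libraries moved the 13 lower genes to between 5 (without replicate 3 of the P209L controls) and 27 (without replicate 3 of the WT controls), and the 3 higher genes to between 3 and 8 (without the same WT library). Hnrnph2, Ppp1r9b, Ilrun, Phactr3, Bfsp2 and Ifi27 kept their call without any 1 of the 12 libraries, and the other 10 lost it in 1 (Pkp4) to 9 (Brsk1 and Tab2) of these fits, with Shank1 and Rufy1 losing it in 8.

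Ppp1r9b (11:94991212-95006898) encodes spinophilin, a dendritic spine scaffold that binds actin and targets protein phosphatase 1. It had 304.77, 359.64 and 334.08 TPM in P209L mice with Hnrnph2 ASO, against 759.48, 755.06 and 766.2 TPM with control ASO. The treated values lay among those of WT mice, which had 280.89, 313.59 and 304.46 TPM with Hnrnph2 ASO, against 285.29, 312.98 and 397 TPM with control ASO. Ppp1r9b fell by 1.19 on the log2 scale (SE 0.11, limma adjusted p = 0.00139). Ppp1cb, a catalytic subunit of protein phosphatase 1, had 132.86, 139.68 and 150.18 TPM with Hnrnph2 ASO, against 197.26, 204.1 and 201.12 TPM with control ASO (log2 change -0.51, limma adjusted p = 0.0185). Phactr3, a phosphatase and actin regulator, had 72.74, 75.9 and 77.32 TPM with Hnrnph2 ASO, against 117.4, 113.32 and 113.1 TPM with control ASO (log2 change -0.60, limma adjusted p = 0.00441). In each of the 3 genes the groups were far apart relative to the spread within them.

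Shank1 (7:44308916-44360094), a scaffold of the postsynaptic density, had 120.14, 126.27 and 125.62 TPM in P209L mice with Hnrnph2 ASO, against 236.28, 238.95 and 204.6 TPM with control ASO. It fell by 0.86 on the log2 scale (SE 0.12, limma adjusted p = 0.0263). Cacng7, an auxiliary subunit of AMPA-type glutamate receptors, had 169.43, 166.43 and 174.19 TPM with Hnrnph2 ASO, against 211.9, 220.19 and 226.48 TPM with control ASO (log2 change -0.37, limma adjusted p = 0.0185). Ddn, which encodes the dendritic protein dendrin, narrowly missed, at 366.27, 437.33 and 360.01 TPM with Hnrnph2 ASO, against 788.33, 698.87 and 767.05 TPM with control ASO (log2 change -0.96, limma adjusted p = 0.0556). Most other synaptic genes did not pass. Of 27 tested postsynaptic density genes, 2 passed as lower (Ppp1r9b and Shank1, background 0.0786%) and none passed as higher. Their median log2 change was -0.0824, with 7 above 0 (background 51.2%). The list of 27 glutamate receptor genes holds Cacng2, Cacng3 and Cacng8 but not Cacng7, which was called. None of the 27 passed, nor did any have an unadjusted p under 0.05, with a median of -0.103 and 4 above 0 (background 51.2%). In the list for inhibitory synapses and GABA receptors, none of 21 genes passed, and 3 had lower values at an unadjusted p under 0.05 (Gabra3, Gabbr1 and Gabra5, background 2.31%). The median of that list was -0.101, with 2 above 0 (background 51.2%). All 3 medians moved with single libraries. Without replicate 2 of P209L with Hnrnph2 ASO they were -0.034, -0.0629 and -0.0556 for the postsynaptic, glutamate and GABA lists. Without replicate 3 of that group the postsynaptic and GABA medians were -0.172 and -0.184. Without replicate 2 of the P209L controls the glutamate and GABA medians were -0.0639 and -0.0395, and without replicate 3 of the P209L controls the postsynaptic median was -0.129.

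Ilrun (17:27751232-27820542), known in human cells as an inhibitor of antiviral and inflammatory gene transcription, had 137.87, 136.82 and 142.03 TPM in P209L mice with Hnrnph2 ASO, against 258.88, 269.89 and 270.01 TPM with control ASO. It fell by 0.93 on the log2 scale (SE 0.076, limma adjusted p = 0.000784). WT mice had 128.57, 140.43 and 136.71 TPM with Hnrnph2 ASO, against 128.35, 120.8 and 151.39 TPM with control ASO, a log2 change of 0.02. The difference between these ASO effects, -0.96, passed at a limma adjusted p of 0.0395. Ilrun was the only gene of 16543 (0.00604%) for which the difference between genotypes passed, and 581 genes (3.51%) had an unadjusted p under 0.05 for it. That call was lost in 10 of 12 fits that left out 1 library, with limma adjusted p between 0.0011 and 0.231. With all libraries kept it was also lost with no filter (0.0695), with the replicate block (0.0893), without the eBayes trend (0.0969) and with the cerebellar covariate (0.157). Between 0 and 7 genes passed for this difference when single libraries were left out, and genes other than Ilrun were among them.

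The remaining genes that fell have diverse known roles. Foxo4, a forkhead transcription factor downstream of insulin signalling, had 14, 15.02 and 14.36 TPM in P209L mice with Hnrnph2 ASO, against 20.86, 22.38 and 23.29 TPM with control ASO (log2 change -0.58, limma adjusted p = 0.00688). Brsk1, a kinase of neuronal polarity, had 192.78, 216.53 and 207.54 TPM with Hnrnph2 ASO, against 297.5, 288.65 and 302.76 TPM with control ASO (log2 change -0.53, limma adjusted p = 0.0331). Pkp4, a plakophilin-related protein of cell junctions, had a log2 change of -0.42 (limma adjusted p = 0.00679), and Tab2, an adaptor of the TAK1 kinase, of -0.56 (limma adjusted p = 0.0331). In all 4 the libraries of the groups did not overlap. The gene model Gm31166 had 5.2, 5.28 and 5.06 TPM with Hnrnph2 ASO, against 16.39, 13.32 and 17.84 TPM with control ASO, a log2 change of -1.44 (limma adjusted p = 0.0135).

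Rufy1 stood apart among the genes that fell. It encodes an endosomal adaptor, lies 2757 bases from Hnrnph1 on chromosome 11, and had 15.69, 13.49 and 12.81 TPM in P209L mice with Hnrnph2 ASO, against 23.42, 20.89 and 22.31 TPM with control ASO (log2 change -0.63, limma adjusted p = 0.0331). WT mice had 16.59, 16.88 and 13.75 TPM with Hnrnph2 ASO, against 22.14, 21.97 and 20.65 TPM with control ASO, a log2 change of -0.44 that did not pass (limma adjusted p = 0.716). In both genotypes the ASO and control libraries did not overlap, and the difference between the effects, -0.20, did not pass (limma adjusted p = 0.933).

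3 genes rose. Ifi27, an interferon-inducible gene, had 64.2, 66.09 and 68.17 TPM in P209L mice with Hnrnph2 ASO, against 45.79, 43.33 and 46.7 TPM with control ASO (log2 change 0.54, SE 0.054, limma adjusted p = 0.00299). Bfsp2, best known as a lens filament protein, had 7.15, 8.87 and 9.49 TPM with Hnrnph2 ASO, against 3.35, 3.1 and 3.18 TPM with control ASO (log2 change 1.17, SE 0.13, limma adjusted p = 0.00496). In WT mice Bfsp2 had 7.71, 7.07 and 8.23 TPM with Hnrnph2 ASO, against 4.82, 7.11 and 5.59 TPM with control ASO, so the P209L controls were the lowest group for this gene. The unnamed transcript 5430431A17Rik had 1.79, 1.82 and 1.8 TPM with Hnrnph2 ASO, against 0.42, 0.47 and 0.29 TPM with control ASO (log2 change 1.01, limma adjusted p = 0.0111), and so reached 1 TPM in the treated group only. With the filter taken over all 12 libraries of the cohort it was not tested, and 2 genes were called higher. Just outside the threshold on the higher side stood Srpk3, a kinase of SR splicing factors (log2 change 0.92, limma adjusted p = 0.0556), and Stab1, a macrophage scavenger receptor (log2 change 0.53, limma adjusted p = 0.0556).

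**Figure D2:**
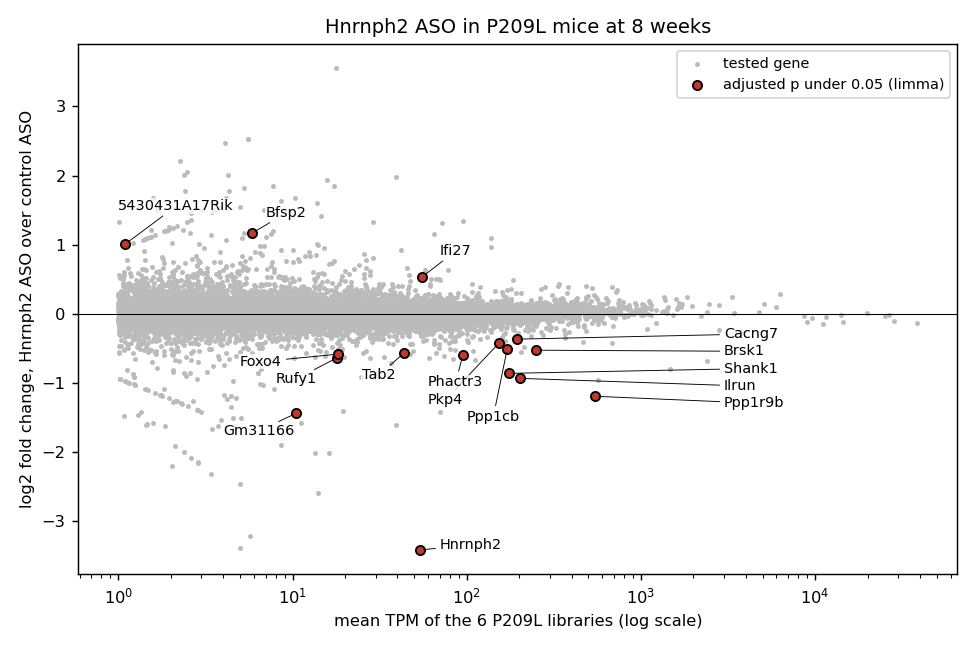
Log2 fold change of each of 16543 tested genes in P209L mice with Hnrnph2 ASO over control ASO at 8 weeks (vertical axis) against its mean TPM over the 6 libraries (horizontal axis, log scale). Red points are the 16 genes with a limma adjusted p under 0.05, 13 below 0 and 3 above; other points with large changes did not pass.

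The same direction was seen in libraries of another age. In the 3-week cohort, where 2 P209L libraries with Hnrnph2 ASO were set against 3 with control ASO, Hnrnph2 was 86.3% lower with the ASO. Of the 15 genes called at 8 weeks beside Hnrnph2, 14 were tested at 3 weeks and the log2 change had the same sign in all 14, with 5 past the threshold (limma, 0.0908% of 16518 genes were called lower and 0.00605% higher there). The 5 were Ppp1r9b (log2 change -1.09), Ilrun (-0.78), Shank1 (-0.97), Brsk1 (-0.55) and Gm31166 (-1.51), all lower. Phactr3 was the weakest of the named ones at 3 weeks, at -0.19 (limma adjusted p = 0.918), against -0.60 at 8 weeks. No gene (0%) passed for the difference between ages (limma, 525 of 16563 genes, 3.17%, had an unadjusted p under 0.05), and age and cohort cannot be told apart here.

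A question of the design is whether the ASO moved the genes that the mutation moves. To avoid shared libraries, these genes were taken from the 3-week cohort, where 22 genes passed in P209L against WT mice with control ASO, all higher in P209L (limma, 0.133% of 16518 genes). All 22 were tested in the 8-week P209L comparison. There, 6 passed as lower with the Hnrnph2 ASO (background 0.0786%) and 0 as higher (background 0.0181%), while 18 were lower at an unadjusted p under 0.05 (background 2.31%). The log2 change was below 0 for 21 of the 22 (background 48.8%), the libraries of the groups did not overlap in 19, all lower (background 5.22%), and the median was -0.58. Beside the genes above, the group included Tnpo2, the nuclear import receptor transportin 2, with 62.75, 60.54 and 69.78 TPM with Hnrnph2 ASO, against 98.04, 104.42 and 102.84 TPM with control ASO (log2 change -0.66, limma adjusted p = 0.0556). It also included Ctnna2, a neuronal catenin that links cadherins to actin (log2 change -0.64), and Ppfia3, a liprin of the presynaptic active zone (log2 change -0.67), neither of which passed.

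3 of the 22 were exceptions. Pisd-ps1, a pseudogene of a phosphatidylserine decarboxylase gene, had 20.18, 16.26 and 12.88 TPM in P209L mice with Hnrnph2 ASO, against 19.65, 17.81 and 11.78 TPM with control ASO, a log2 change of 0.01. Epha10, an ephrin receptor, and Cort, which encodes the neuropeptide cortistatin, had changes of -0.11 and -0.15 with overlapping groups. Counting of B130046B21Rik, one of the 22, could include reads of Ddn or the reverse, since their annotations on chromosome 15 overlap and the sources do not state whether counting used strand.

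In WT mice the same 22 genes showed no common direction with the ASO. The median log2 change was 0.0183, 10 of 22 were below 0, and none had groups that did not overlap (background 7.19%) or passed (limma; the WT comparison called 2 genes of 16543, 0.0121%). For the difference between genotypes in the ASO effect, 1 of the 22 passed (Ilrun, background 0.00604%). At an unadjusted p under 0.05 there were 16, all of them lower in P209L (background 1.81%), and the median over the 22 was -0.62. Leaving out single libraries moved the count of 6 genes lower in P209L to between 2 (without replicate 3 of the P209L controls or replicate 1 of P209L with Hnrnph2 ASO) and 11 (without replicate 3 of the WT controls).

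At 8 weeks the P209L controls and WT controls were compared in the same fit. The 2 contrasts share the P209L control libraries, so they are given side by side and no relation between them is drawn. For the 22 genes the median log2 difference of P209L over WT with control ASO was 0.63, and the median change with the ASO in P209L was -0.58. In P209L mice with Hnrnph2 ASO over WT mice with control ASO the median was 0.0722, none of the 22 passed and none had an unadjusted p under 0.05 (limma). Only Cort, Gm31946 and Foxo4 had a difference below 0. The 95% intervals of these differences included 0 for all 22, but they span values between -0.93 and 0.97 at the widest, so smaller remaining differences cannot be told from none. The median level of the 22 genes was 105% of WT controls in treated P209L mice and 155% in control P209L mice. In P209L over WT mice, both with Hnrnph2 ASO, the median log2 difference was 0.113. None of the 22 passed there and 1 had an unadjusted p under 0.05 (limma). Over all genes, 2 passed between treated P209L and control WT mice, Hnrnph2 and 5430431A17Rik (0.0121%; 975 genes, 5.89%, at an unadjusted p under 0.05). 5430431A17Rik entered the test only through the treated P209L libraries, where it is high, so its call is not read as a remaining difference.

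**Figure D3:**
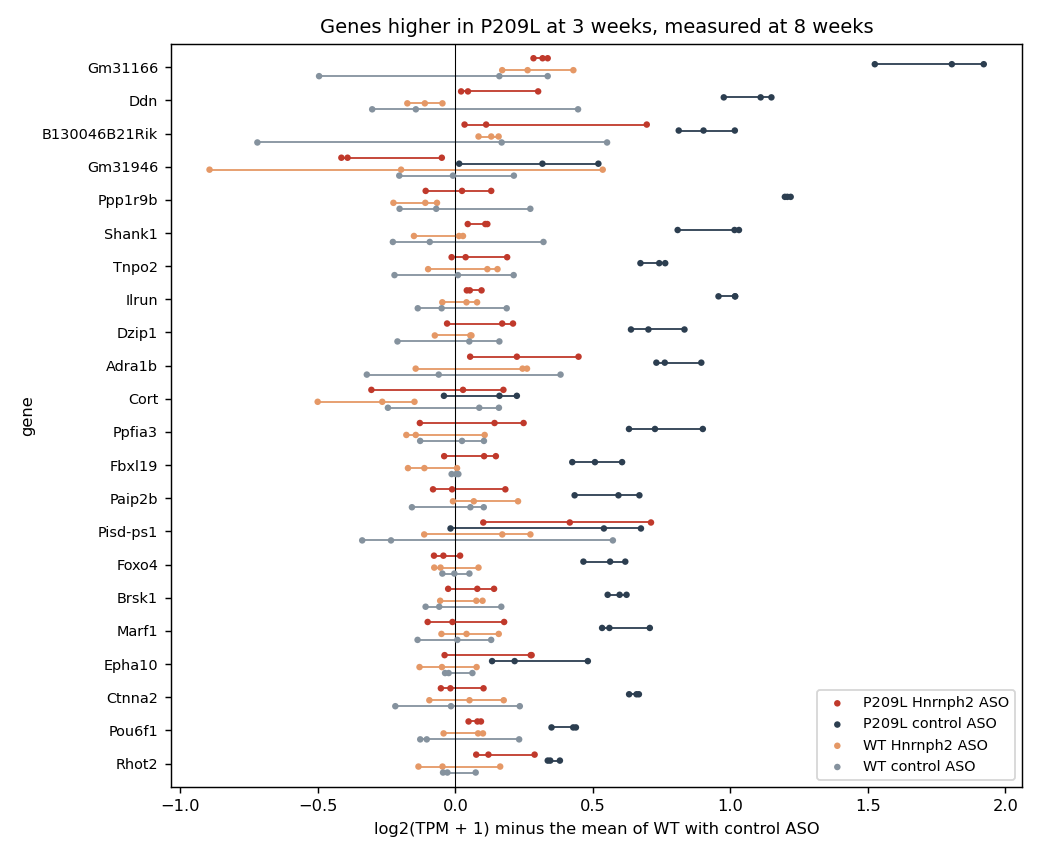
Level of the 22 genes called higher in P209L mice at 3 weeks, measured in each 8-week library as log2(TPM + 1) minus the mean of WT mice with control ASO. Points are libraries and lines join the lowest and highest of a group; in 19 of the 22 genes all P209L libraries with Hnrnph2 ASO lie below all P209L libraries with control ASO, and Pisd-ps1, Epha10 and Cort overlap.

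Across all tested genes other than Hnrnph2, the log2 changes with the ASO in P209L and in WT mice at 8 weeks come from separate libraries. Pearson's r between them over 16542 genes was 0.0306 and Spearman's rho -0.031, as a description, since genes are not independent replicates. The P209L effects at 8 and at 3 weeks had an r of 0.174 and a rho of 0.311 over 16160 genes.

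**Figure D4:**
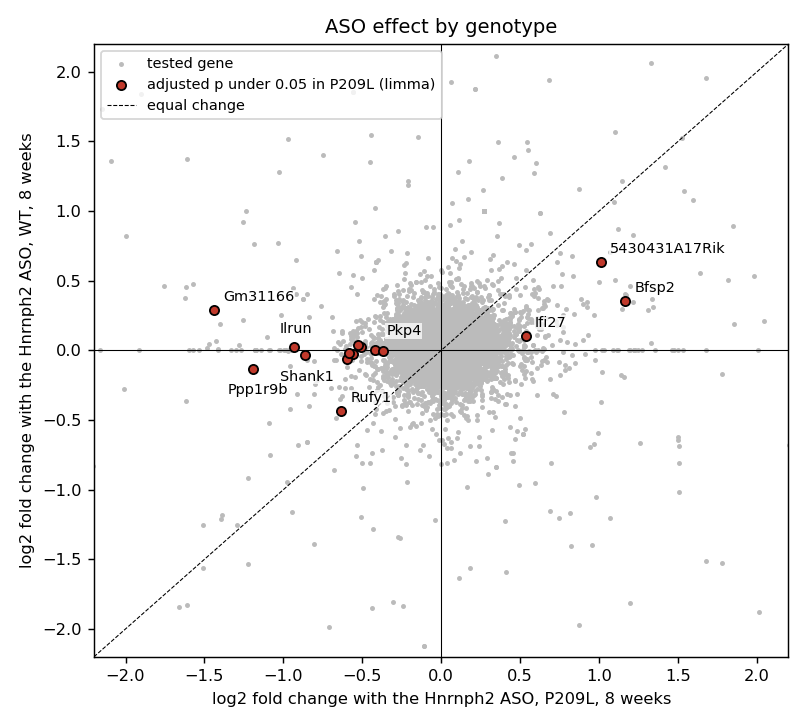
Log2 fold change with the Hnrnph2 ASO over control ASO at 8 weeks in P209L mice (horizontal axis) and in WT mice (vertical axis), 1 point per tested gene, without Hnrnph2 and with 20 genes beyond the axis limits of 2.2 not shown. Red points passed in P209L mice (limma); most lie near 0 on the WT axis, and Rufy1 is lower in both.

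Genes of the type I interferon response, which cells switch on against viral or foreign nucleic acid, had a higher summed level with the Hnrnph2 ASO in P209L mice, and 1 of them passed. Their summed level was 269, 259 and 311.3 TPM in P209L mice with Hnrnph2 ASO, against 198.8, 204.2 and 209.3 TPM with control ASO. The groups did not overlap. Of 30 listed genes 21 were tested and 1 passed, as higher (Ifi27, background 0.0181%). At an unadjusted p under 0.05, 18 were higher and 0 lower (backgrounds 4.04% and 2.31%), and the median log2 change was 0.47. Oasl2, an oligoadenylate synthetase-like antiviral gene, had 6.53, 5.93 and 8.52 TPM with Hnrnph2 ASO, against 3.17, 3.38 and 4.5 TPM with control ASO (log2 change 0.77, limma adjusted p = 0.115). Isg15, a ubiquitin-like interferon product, averaged 6.84 TPM with Hnrnph2 ASO and 3.41 TPM with control ASO (log2 change 0.84, limma adjusted p = 0.205). In WT mice the summed level was 239.3, 234 and 233.6 TPM with Hnrnph2 ASO, against 223.9, 213.6 and 210.9 TPM with control ASO, and the median change was 0.157. The difference between genotypes passed for no member (limma; 5 of 21 had an unadjusted p under 0.05, all higher in P209L, against a background of 1.7%). At 3 weeks the median change in P209L was 0.90, from 2 libraries with Hnrnph2 ASO, and no member passed for the difference between ages. With all 35 libraries in 1 fit the count of 18 became 4, and with a filter of 5 TPM it became 11, where fewer members were tested.

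Other immune genes had smaller values in the same direction. Of 13 tested genes of MHC class I antigen presentation none passed and 7 had higher values at an unadjusted p under 0.05 (background 4.04%), with a median of 0.242. Of 10 complement genes none passed and 5 had higher values at an unadjusted p under 0.05 (background 4.04%), with a median of 0.324. C4b, an opsonin gene of the classical pathway, had 19.02, 19.9 and 22.57 TPM with Hnrnph2 ASO, against 11.29, 13.3 and 11.38 TPM with control ASO (log2 change 0.73, limma adjusted p = 0.0966). C1qa, a microglial subunit of complement C1q, had 80.49, 103.62 and 101.47 TPM with Hnrnph2 ASO, against 49.6, 63 and 70.57 TPM with control ASO (log2 change 0.64, limma adjusted p = 0.205). Homeostatic microglial genes summed to 815.4, 763.2 and 1039 TPM with Hnrnph2 ASO, against 745.1, 897.9 and 949.4 TPM with control ASO, and these overlap. Among the 19 tested members of that list the median was 0.115 and none passed. The activated microglial list had a median of 0.262, with 4 of 19 higher at an unadjusted p under 0.05 (background 4.04%). Its summed level was 7320, 7822 and 7004 TPM with Hnrnph2 ASO, against 6368, 6863 and 7675 TPM with control ASO, and these overlap too. In WT mice the median changes were 0.164 for MHC class I, 0.179 for complement, 0.17 for homeostatic and 0.17 for activated microglial genes. The difference between genotypes passed for no member of these lists (limma). At an unadjusted p under 0.05 it was higher in P209L for 1 complement gene and for no other member (background 1.7%). In bulk tissue, a change in the number of cells of a type and a change in RNA per cell cannot be told apart, here and for every cell type list. Gfap, a structural protein that astrocytes raise on injury, had 163.63, 218.38 and 272.22 TPM with Hnrnph2 ASO, against 138.76, 164.34 and 154.57 TPM with control ASO (log2 change 0.49, limma adjusted p = 0.528), and those values overlap.

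Immediate early genes, which neurons transcribe within minutes of activity or handling, had higher values with the ASO in P209L mice. Their summed level was 1333, 1360 and 1215 TPM with Hnrnph2 ASO, against 604, 839.7 and 908.6 TPM with control ASO. WT mice had 1303, 1456 and 1120 TPM with Hnrnph2 ASO, against 1218, 1210 and 891.4 TPM with control ASO. The P209L controls were low in all 3 libraries, overlapping 1 WT control library, and the treated P209L libraries overlapped those of WT mice. None of the 30 genes passed, while 25 had an unadjusted p under 0.05 and all 30 were above 0 (backgrounds 4.04% and 51.2%), with a median log2 change of 0.75. Egr4, a zinc finger transcription factor, had 43.96, 46.36 and 34.98 TPM with Hnrnph2 ASO, against 12.47, 16.2 and 19.62 TPM with control ASO (log2 change 1.33, limma adjusted p = 0.0741). Fosb, a subunit of the AP-1 factor, had 15.2, 13.7 and 11.76 TPM with Hnrnph2 ASO, against 2.93, 4.5 and 3.66 TPM with control ASO (log2 change 1.64, limma adjusted p = 0.101). Leaving out replicate 1 of the P209L controls, the lowest library, lowered the median to 0.546 and the count to 17. At 3 weeks the median in P209L mice was 0.000746, and no gene passed for the difference between ages. In WT mice at 8 weeks the median change was 0.233. The difference between genotypes at 8 weeks passed for no member (limma). For it, 6 of 30 had an unadjusted p under 0.05, all higher in P209L (background 1.7%). What the animals experienced before collection is not in the labels and its part in these values was not tested.

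**Figure D5:**
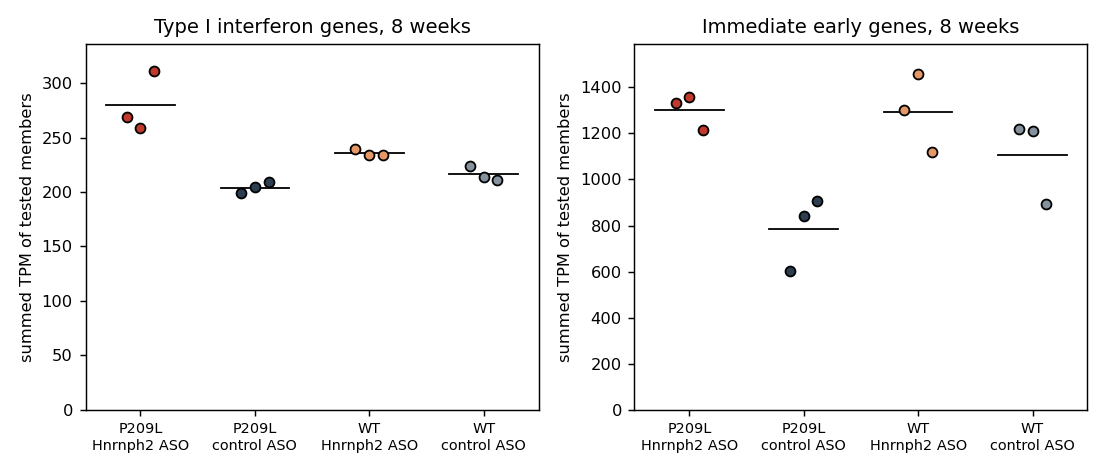
Summed TPM of the tested members of the type I interferon list (left, 21 genes) and the immediate early list (right, 30 genes) in each 8-week library, by genotype and ASO. Points are libraries and lines are means; P209L mice with Hnrnph2 ASO lie between 259 and 311.3 TPM for interferon genes, above every other library, and the P209L controls lie lowest for immediate early genes in 2 of their 3 libraries.

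None of the other lists described here had a called member. Of 27 other hnRNP and FET genes none passed, with a median log2 change of 0.0357, and none of 33 SR proteins and neuronal splicing regulators passed, with a median of -0.021. Of 28 nuclear transport genes none passed and Tnpo2, at -0.66, was the lowest. Of 14 tested oligodendrocyte precursor genes 3 had higher values at an unadjusted p under 0.05 (background 4.04%), Gpr17 and Olig1 among them, and none passed. Choroid plexus genes had a median of -0.23 and Purkinje cell genes of -0.141, and without replicate 2 of the Hnrnph2 ASO group, which had the lowest cerebellar sum, these became 0.0377 and -0.00974. Of 59 cytosolic ribosomal protein genes none passed, 56 were above 0 (background 51.2%) and the median was 0.0881, which became 0.0138 without replicate 2 of P209L with Hnrnph2 ASO and 0.0559 without replicate 1 of the P209L controls. Erythrocyte genes had a median of 0.399, with 6 of 6 tested members above 0 (background 51.2%). Their summed level was 1552, 1811 and 1374 TPM with Hnrnph2 ASO, against 1532, 784.4 and 1457 TPM with control ASO, so the groups overlapped and replicate 2 of the controls was low. Mitochondrially encoded genes summed to 142100, 137900 and 135300 TPM with Hnrnph2 ASO, against 148700, 148700 and 146900 TPM with control ASO. The sums did not overlap, 7 of the 15 genes were lower with no overlap (background 5.22%), none passed, and the median was -0.112. The part of RNA quality or of library composition in these values was not tested.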

How the data were processed

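RNA was profiled in mouse brain libraries, and the authors deposited 1 table of TPM values per gene and library, which was used here. Per the submitters' processing notes, the tools were RSEM, GATK 4.0.4.0, Trim Galore and STAR 2.7.1a, on build mm10. Their settings are not given in the sources used here. TPM holds no depth. Gene positions come from RefSeq on GRCm38.p6, the same build. Groups follow the sample titles.

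2-sided limma tests (version 3.58.1, R 4.3.3, eBayes with a trend) were run on log2(TPM + 1). 1 fit held the 12 libraries of the 8-week cohort, for genes with a mean TPM of at least 1 over the 6 compared libraries. P-values were adjusted by Benjamini-Hochberg over 16543 genes, and those under 0.05 were called. A fold change on this scale understates that of low genes. The 3-week genes came from a fit of 11 libraries, and the difference between ages from a fit of all 35. Single values had an exact permutation test. On simulated data with 200 changed genes of 16543, the fit for P209L at 8 weeks recovered 46% at a log2 change of 0.5, 90.5% at 1 and 96% at 2, with 7 to 10 false calls. The simulation drew the noise of each gene separately, without the composition that genes of a library share. The recovered shares hold for that setting only and do not give the sensitivity in the real libraries.

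Genes are named by rule: the hnRNP H/F family; the 10 largest changes in each direction with groups that did not overlap, filled from the smallest unadjusted p; the 3-week mutation genes; up to 4 members of each list described; the 10 smallest p for the difference between genotypes; and the neighbours of Hnrnph2. Isg15 was named after its values were seen. The comparison and the 44 gene lists were chosen with earlier results of these data known, and lists are described by counts and medians with no set test. Alternatives tried were the libraries in the fit, the pseudocount, the filter, the scaling, the trend, a replicate block, a cerebellar covariate and leaving out each library.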

Additional observations from a re-analysis of the deposited data

Results flagged for a closer look

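The change of Ilrun with the Hnrnph2 ASO at 8 weeks differed between genotypes. The log2 change in P209L minus that in WT was -0.958 (limma adjusted p = 0.0395), from -0.93 in P209L and 0.02 in WT mice. All 3 P209L libraries with Hnrnph2 ASO lay below all 3 with control ASO, while the WT groups overlapped. The call was lost in 10 of the 12 fits that left out 1 library, and also with no filter, the replicate block, no eBayes trend or the cerebellar covariate.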

How the results depend on the processing

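The 16 called genes kept their sign in all alternatives in which they were tested, but not their call: 9 kept it with the 6 compared libraries alone, 9 with the cerebellar covariate, 11 with no filter, 13 without the trend, and 6 to 16 when single libraries were left out. The 3 genes called higher became 47 with all 35 libraries in the fit, 6 with no filter, 5 with median-of-ratios scaling, and 3 to 8 when single libraries were left out (5 and 8 without WT control replicates 2 and 3, 6 without replicate 2 or 3 of P209L with Hnrnph2 ASO). The 13 genes called lower became 56 with all 35 libraries, 22 with a filter of 5 TPM, 24 with median-of-ratios scaling, and 5 to 27 when single libraries were left out (20 and 27 without WT control replicates 2 and 3, 7 and 5 without P209L control replicates 2 and 3, 8 without replicate 2 of WT with Hnrnph2 ASO, 7 without replicate 1 or 2 of P209L with Hnrnph2 ASO). The single difference between genotypes became 12 with all 35 libraries, 0 without the trend, 0 with the cerebellar covariate and 0 to 7 when single libraries were left out. The 6 genes of the 3-week list called lower became 15 with all 35 libraries, 3 with no filter, 12 with a filter of 5 TPM, 11 with median-of-ratios scaling, 11 without mitochondrially encoded genes and 2 to 11 when single libraries were left out. Hnrnph1, at 0.304, passed with all 35 libraries. The causes were not tested.

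Replicate numbers did not pair the P209L samples: deviations of same-numbered P209L libraries correlated at 0.0258, -0.0415 and 0.000545. In the titles, replicate 2 of the P209L controls and replicate 2 of the WT controls share a name prefix. No other 8-week library carries that prefix, and its part in the values was not tested. With the replicate block 10 genes were called higher, against 3 without it, 17 lower, and 0 for the difference between genotypes.

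Library composition, 3 libraries a group and values without a known depth limit precision. Leaving out WT libraries and counting list members under the alternatives were chosen after seeing the data.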
